A study of Oryctolagus cuniculus with 9 samples.

Results

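Macrophages and neutrophils were followed in rabbit urethral tissue through 33 genes for their surface receptors, granule and lysosomal proteins, signalling adaptors and lineage factor. Of these, 28 were found by symbol in the deposited table of 28788 gene rows. A further 3 (LYZ, ADGRE1 and CSF2RB) stood there under a locus number and were found through their RefSeq gene ID. The neutrophil genes ELANE and TREM1 were matched to no row and were not analysed here. The 31 genes found were sorted by role into resident-type macrophage genes, scavenger and pattern receptors, activated macrophage genes, neutrophil genes, and genes shared by many leukocytes.

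The series comes from work on a urethral repair stent made of hydrogel. Its 9 libraries of polyadenylated RNA from urethral tissue fall under the codes S6, S7 and S9, 3 to a code, and are written here as code and number. The labels name no treatment, time, animal or control for a code, so the comparisons are between codes only. Nothing states that the libraries are separate animals, and p-values then measure only the spread between these libraries, which may be technical. Levels are CPM, read counts set relative to the library total as scaled by TMM, given by library or as mean ± SD with n = 3 per group.

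Macrophages live in most tissues as resident cells that clear debris, and are joined after injury by monocytes from the blood. CSF1R, the receptor of their main growth factor, keeps them alive, scavenger receptors such as MSR1 and CD163 take up altered lipoproteins and haemoglobin, and CD80 and CD86 give costimulation to T cells. Neutrophils come first to an injury; they make their granule enzymes in the bone marrow and carry the receptor for G-CSF, CSF3R. The transcription factor PU.1, encoded by SPI1, directs both lineages.

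These genes were highest in S6. In all 29 members that passed the filter on low counts, the level was lower in S9 and in S7 than in S6. By edgeR's quasi-likelihood test 18 of the 29 fell in S9 against S6 at an adjusted p below 0.05, and none rose. Over all 17102 genes tested, 6.34% were called lower in S9. DESeq2 called 20 members lower, with 12.1% of all genes, and limma-voom 23, with 11.6%. By edgeR the largest falls were in ARG1 and CSF3R and the smallest in MERTK and SIGLEC1. The median log2 fold change was -2.20 over the members and -0.01 over all genes tested. In a bulk sample, fewer cells of a type and less RNA per cell cannot be told apart.

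The calls rested on few libraries. The adjusted p of the 18 lay between 0.0132 and 0.0477, and 11 of them lay at 0.03 or above. With a block on the number in the title, 1 member and 16 genes were called, and the members' median was -1.43. The labels do not say that this number pairs libraries. By edgeR the count was 7 without S6_3 (CD68, SIGLEC1, CSF3R, CD53, SPI1, TYROBP and CSF2RA), 10 without S7_4, 1 without S6_4 and 0 without S9_1 or without S9_2, where in both fits 21 members had an unadjusted p below 0.05. Calls over all genes dropped in the same fits, from 2115 to 1025 without S6_3, 1197 without S7_4, 89 without S6_4, 0 without S9_1 and 4 without S9_2. An unadjusted p below 0.05 was found for 3994 of 17557 genes without S9_1 and 4174 of 17553 without S9_2. The members' count was also 0 in the 6 libraries with ATP6 above 100 CPM, where the median log2 fold change was -2.57. In that fit 21 members and 4339 of 17223 genes tested had an unadjusted p below 0.05.

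**Figure D1:**
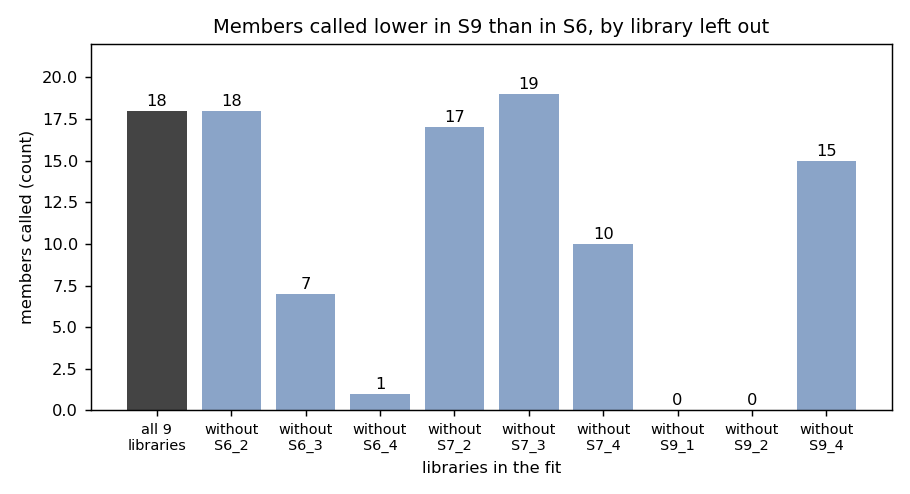
Number of members called lower in S9 than in S6 by edgeR (vertical axis, count) in the fit of all 9 libraries and with each library left out (horizontal axis). It was 18 with all libraries, 0 without S9_1 or S9_2, and 15 to 19 without S6_2, S7_2, S7_3 or S9_4.

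Between S6 libraries the members also differed. S6_3 was the highest of all 9 libraries in 24 of the 29 members, and S9_1 the lowest in 16. Against the mean of the other 2 S6 libraries, S6_3 was a median of 2.86-fold higher over the members. The excess was 3.35-fold for the shared leukocyte genes, 2.92-fold for the scavenger receptors and 1.19-fold for the resident-type genes. Within the last role MERTK and VSIG4 were lower in S6_3 than in both other S6 libraries. Without S6_3 the median log2 fold change of the members was -1.41 in S9 against S6 and -1.04 in S7 against S6.

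**Figure D2:**
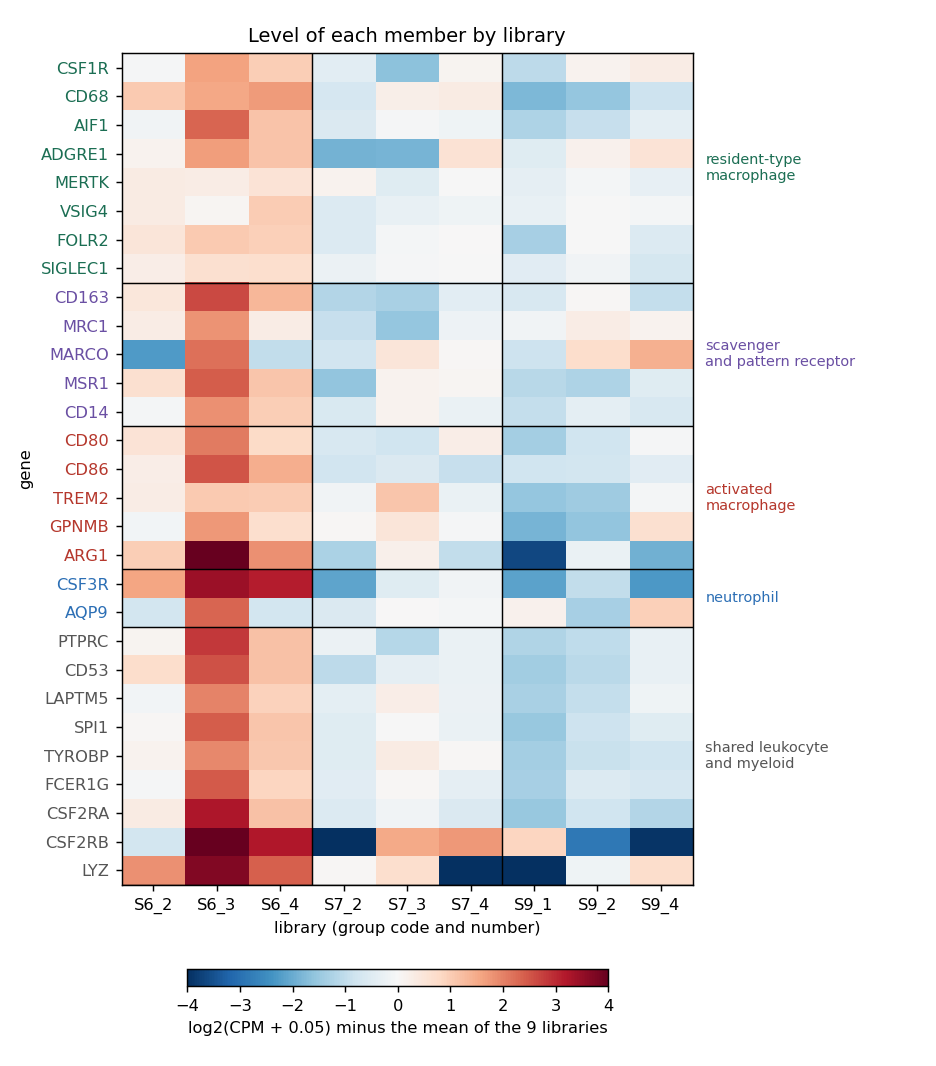
Level of each tested member (rows, grouped by role) in each library (columns), as log2(CPM + 0.05) minus the mean of the 9 libraries, with red above and blue below that mean. The S6 columns are mostly red, S6_3 the most, while MERTK, VSIG4 and SIGLEC1 vary little between columns.

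The resident-type genes held both the steadiest members and CD68, the most firmly called member. Of 8 tested genes 5 fell in S9 against S6 (median log2 fold change -1.09). CD68, a lysosomal glycoprotein of macrophages, was at 137, 191 and 213 CPM in S6_2, S6_3 and S6_4, at 41.3, 78.4 and 83.6 CPM in S7_2, S7_3 and S7_4, and at 18.8, 22.6 and 37 CPM in S9_1, S9_2 and S9_4. The 3 groups did not overlap, and CD68 was 6.91-fold lower in S9 than in S6 (log2 fold change -2.79, SE 0.35, adjusted p = 0.0132 by edgeR). It was one of the 7 members still called without S6_3, with a log2 fold change of -2.73.

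AIF1, a calcium-binding protein of macrophages, was at 35, 192 and 83.7 CPM in the S6 libraries in the same order, at 25.7, 37.4 and 34.3 CPM in S7 and at 16.2, 20.4 and 29.2 CPM in S9. Every S9 library lay below every S6 library, and S7_3 lay above S6_2. Its log2 fold change in S9 against S6 was -2.24 (SE 0.54, adjusted p = 0.0338 by edgeR), and -1.42 with an adjusted p of 0.0634 without S6_3.

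SIGLEC1, a sialic acid receptor of tissue macrophages, was at 51.4, 67.7 and 68.7 CPM in S6, 36.1, 41.8 and 42.3 CPM in S7 and 31.7, 39.2 and 26.2 CPM in S9. FOLR2, a folate receptor of resident macrophages, was at 33.7, 49.8 and 46.1 CPM in S6, 16.3, 22.5 and 24.4 CPM in S7 and 9.45, 23.7 and 16.2 CPM in S9. MERTK, a receptor for the uptake of dying cells, was at 69.9, 68.5 and 81.5 CPM in S6, 62.0, 40.1 and 54.9 CPM in S7 and 43.7, 52.9 and 44.2 CPM in S9. In these genes the S6 libraries lay close together and above every S7 and S9 library, and S7 and S9 overlapped. The falls in S9 were small, with a log2 fold change of -0.95 (SE 0.18, adjusted p = 0.0227 by edgeR) for SIGLEC1, -1.39 (SE 0.33, adjusted p = 0.0321) for FOLR2 and -0.64 (SE 0.18, adjusted p = 0.0477) for MERTK.

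The other 3 resident-type genes were not called by edgeR. VSIG4, a complement receptor, was at 44.8 ± 15.9 CPM in S6 and 28.3 ± 2.97 CPM in S9 (adjusted p = 0.0996 by edgeR). Every S9 library of VSIG4 lay below every S6 library, and limma-voom called it lower (0.0251) while DESeq2 did not (0.0608). CSF1R was at 135 ± 71.4 CPM in S6, 48.0 ± 25.7 CPM in S7 and 63.7 ± 27.0 CPM in S9, and its S6 and S9 libraries overlapped. ADGRE1, the F4/80 antigen gene, had 10 to 29 counts per S6 library and was at most 0.878 CPM.

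Among the scavenger and pattern receptors 3 of 5 fell in S9 against S6 (median log2 fold change -1.75). CD163, the haemoglobin receptor, was at 57.2, 260 and 105 CPM in S6, 18.7, 17.1 and 31.0 CPM in S7 and 26.8, 43.4 and 21.8 CPM in S9. S6 lay above both other groups, which overlapped, and S6_3 stood 3.20-fold above the other S6 libraries. The log2 fold change was -2.20 in S9 (SE 0.54, adjusted p = 0.0353 by edgeR) and -2.66 in S7 (SE 0.55, adjusted p = 0.0939 by edgeR).

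MSR1, a receptor for modified lipoproteins, was at 8.21, 28.3 and 11.2 CPM in S6, 1.69, 5.78 and 5.5 CPM in S7 and 2.38, 2.19 and 3.68 CPM in S9. CD14, the co-receptor for bacterial lipopolysaccharide, was at 53.7, 204 and 112 CPM in S6, 37.1, 63.4 and 47.1 CPM in S7 and 29.2, 43.9 and 36.5 CPM in S9. For both, every S9 library lay below every S6 library, and for CD14 S7_3 lay above S6_2. Both fell in S9, with a log2 fold change of -2.53 (SE 0.60, adjusted p = 0.0329 by edgeR) for MSR1 and -1.75 (SE 0.43, adjusted p = 0.0362) for CD14.

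MRC1, the mannose receptor, and MARCO, a scavenger receptor of macrophage subsets, were not called. MRC1 was at 65.4, 187 and 65.1 CPM in S6, 28.0, 18.4 and 46.9 CPM in S7 and 48.3, 66.0 and 58.8 CPM in S9. Its S9 libraries overlapped those of S6 and lay above every S7 library. The log2 fold change in S9 against S6 was -0.87 (SE 0.46, adjusted p = 0.232 by edgeR), and -0.16 without S6_3. MARCO had 1, 54 and 5 counts in the S6 libraries and at most 35 in any other, and its log2 fold change of -0.13 turned to 2.71 without S6_3, uncalled in both fits.

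In the activated macrophage role 2 of 5 genes fell in S9 against S6 (median log2 fold change -1.95). CD86, a costimulatory ligand, was at 5.12, 24.3 and 11.7 CPM in S6, 2.48, 2.80 and 2.23 CPM in S7 and 2.41, 2.55 and 3.07 CPM in S9. The S7 and S9 libraries lay within a narrow band under all of S6 (log2 fold change in S9 -2.36, SE 0.50, adjusted p = 0.0261 by edgeR, and 0.0507 without S6_3). CD80, its partner, was at 4.85, 14 and 5.58 CPM in S6, 2.07, 1.87 and 3.95 CPM in S7 and 1.24, 1.86 and 3.20 CPM in S9. Its S6 libraries also lay above all others, but it missed the threshold by edgeR (adjusted p = 0.0523), while DESeq2 (0.00404) and limma-voom (0.0276) called it lower in S9.

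ARG1, the arginase of alternatively activated macrophages, was at 8.26, 143 and 15 CPM in S6, 1.72, 4.79 and 2.07 CPM in S7 and 0.291, 3.51 and 1.06 CPM in S9. It had the largest log2 fold change of the members in S9 (-5.09, SE 1.29, adjusted p = 0.0390 by edgeR), of which -2.83 was left without S6_3, with an adjusted p of 0.0924. Outside S6_3, every S6 library still lay above every S7 and S9 library.

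TREM2 and GPNMB, a lipid receptor and a membrane glycoprotein of lipid-laden macrophages, were not called by edgeR in S9 against S6. DESeq2 (adjusted p = 0.00575) and limma-voom (0.0126) called TREM2 lower, and limma-voom alone GPNMB (0.0283). TREM2 was at 27.9, 46.7 and 45.9 CPM in S6, 20.8, 49.0 and 18.9 CPM in S7 and 7.86, 8.57 and 21.6 CPM in S9. GPNMB was at 78.2, 285 and 136 CPM in S6, 88.6, 118 and 82.3 CPM in S7 and 23.3, 28.6 and 131 CPM in S9. S7_3 and S9_4 were the highest of their groups in both genes, as in 11 of the 29 tested members. In S6 the highest was S6_3, as in 25 of the 29 tested members. S9_4 stood 5.05-fold above the other S9 libraries in GPNMB. S7_3, S9_4 and S6_4 had 21.5 to 25.9 CPM of ATP6, against 1946 to 3258 CPM in the other 6. The mitochondrial gene ND4 was not split in this way, at 303, 350 and 242 CPM against 219 to 362 CPM. The part of the ATP6 difference in these members was not tested.

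**Figure D3:**
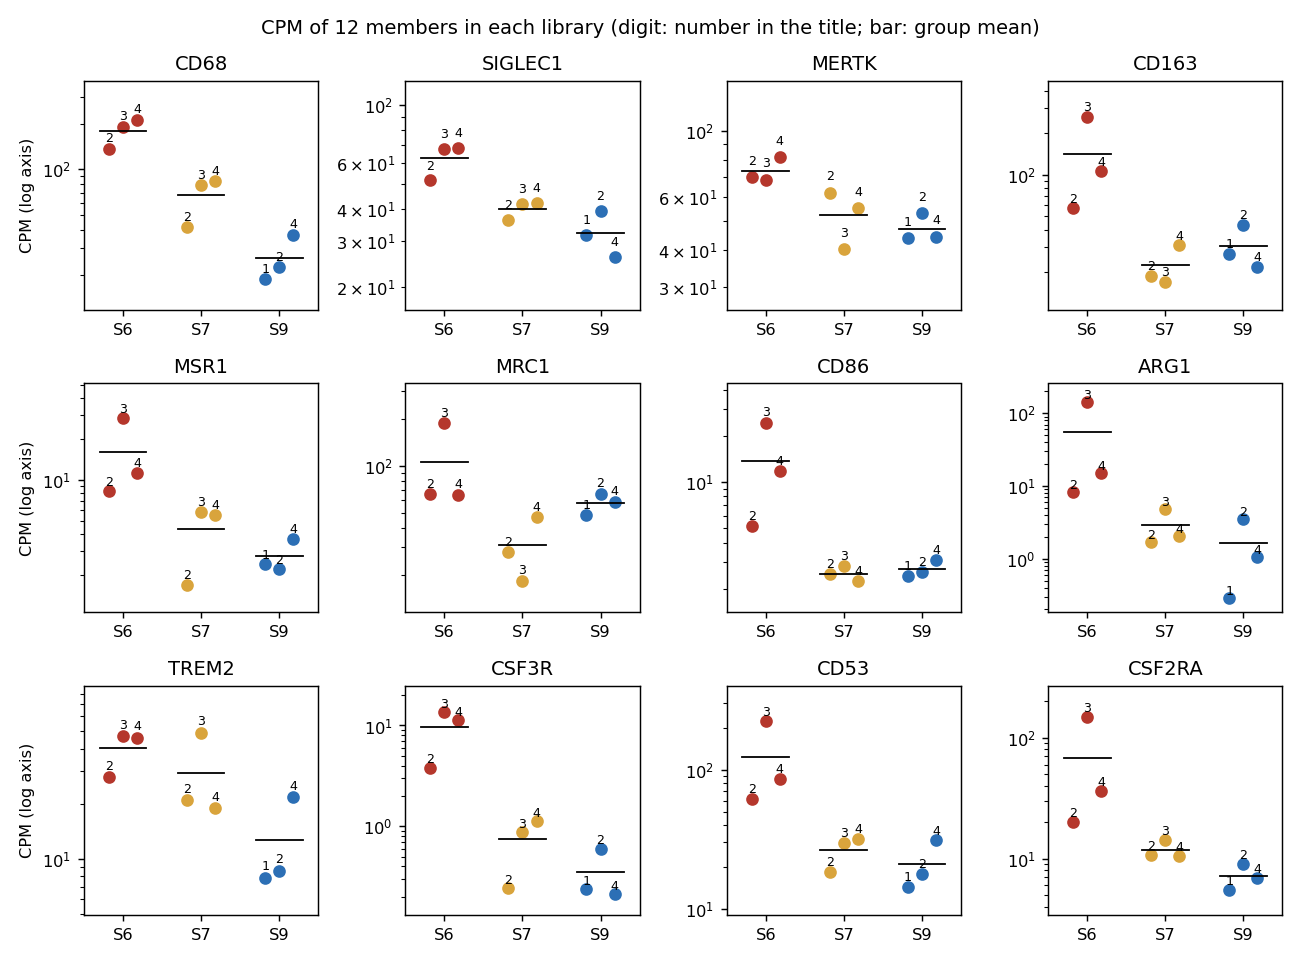
CPM of 12 members in each library on log axes, by group, with the number of each library beside its point and a bar at the group mean. In CD68, CD163, CD86, CSF3R and CD53 all S6 points lie above all S7 and S9 points, while MRC1 overlaps between S6 and S9 and TREM2 is high in S7_3 and S9_4.

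Neutrophil genes were thinly covered, with 4 of 6 found and 2 tested, of which CSF3R fell in S9 against S6. CSF3R was at 3.82, 13.7 and 11.3 CPM in S6, 0.246, 0.876 and 1.12 CPM in S7 and 0.238, 0.603 and 0.212 CPM in S9. All S6 libraries lay far above the others, and the fall in S9 was 27.1-fold (log2 fold change -4.76, SE 0.78, adjusted p = 0.0179 by edgeR) and held without S6_3 (-4.40, adjusted p = 0.0307). AQP9, a water and glycerol channel of neutrophils and liver, was at 0.190, 1.94 and 0.188 CPM in S6, 0.218, 0.351 and 0.327 CPM in S7 and 0.397, 0.110 and 0.715 CPM in S9. Its groups overlapped, and its log2 fold change of -0.91 turned to 1.11 without S6_3, uncalled in both fits.

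The granule genes MPO and CAMP did not pass the filter. MPO, the myeloperoxidase of primary granules, had 4 counts, all in S7_2, and 0 in the S6 and S9 libraries, which allows up to 0.0277 CPM in S6 and 0.0275 CPM in S9. The row named CAMP, after the cathelicidin of secondary granules, has a gene length of 11581 bases behind its FPKM, so its counts may not be those of CAMP alone. It had 34, 4 and 21 counts in the S6 libraries, 1, 0 and 2 in S7 and 8, 3 and 0 in S9. Over the groups the counts of this row were 59, 3 and 11, so that S6 exceeded S7 by a ratio of 20.0 with an exact 95% interval from 6.51 to 99.6, and S9 by 5.40 (2.81 to 11.4). These limits and intervals cover counting error only.

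Other neutrophil genes gave the wider view. From a list of 18 that are no members, 15 were found and 14 tested, and 9 fell in S9 against S6 (median log2 fold change -3.74). Over all genes tested, 6.34% were called lower in S9. FPR1, a receptor for bacterial peptides, was at 9.46 ± 3.43 CPM in S6, 1.45 ± 0.302 CPM in S7 and 0.553 ± 0.174 CPM in S9 (adjusted p = 0.00941 by edgeR). The collagenase MMP8 was at 0 in all libraries. The chemokine receptor CXCR2, chosen after its values were seen, was at 8.94, 38.0 and 19.2 CPM in S6 and at most 3.77 CPM elsewhere. LTF, the lactoferrin gene, also chosen after its values were seen, went the other way. It was at 436, 33.3 and 538 CPM in S6, 2764, 1578 and 772 CPM in S7 and 1636, 5680 and 313 CPM in S9, so its groups overlapped.

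Of the shared leukocyte and myeloid genes 7 of 9 fell in S9 against S6 (median log2 fold change -2.54). PTPRC, the phosphatase CD45 of all leukocytes, was at 34.8, 230 and 72.4 CPM in S6, 27.1, 14.6 and 26.8 CPM in S7 and 14, 15.7 and 26.2 CPM in S9. CD53, a leukocyte tetraspanin, was at 61.5, 222 and 85.9 CPM in S6, 18.3, 29.9 and 31.8 CPM in S7 and 14.5, 17.9 and 31.1 CPM in S9. LAPTM5, a lysosomal membrane protein of leukocytes, was at 142, 602 and 291 CPM in S6, 118, 183 and 130 CPM in S7 and 62.1, 79.3 and 136 CPM in S9. In each of them S6_3 was the highest library and every S9 library lay below every S6 library. CD53 had the smallest p of the role in the test of all 3 groups together, and its log2 fold change in S9 was -2.54 (SE 0.51, adjusted p = 0.0240 by edgeR). PTPRC (-2.59, adjusted p = 0.0361) and LAPTM5 (-1.90, adjusted p = 0.0428) were no longer called without S6_3, at adjusted p = 0.0651 and 0.0977.

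The lineage factor and the adaptors followed the same order. SPI1 was at 22.7, 116 and 46.6 CPM in S6, 15.6, 21.3 and 18.2 CPM in S7 and 7.65, 12.2 and 15.7 CPM in S9. TYROBP, the adaptor DAP12 that couples TREM2 and other receptors to SYK, was at 60.4, 207 and 115 CPM in S6, 38.8, 69.1 and 56.4 CPM in S7 and 21.1, 29.5 and 31.4 CPM in S9. FCER1G, the adaptor chain of Fc receptors, was at 30.8, 175 and 58.1 CPM in S6, 23.1, 32.8 and 24.5 CPM in S7 and 12.6, 21.9 and 19.7 CPM in S9. Every TYROBP and FCER1G library of S9 lay below every library of S7, and for SPI1 S9_4 reached S7_2. The log2 fold changes in S9 against S6 were -2.38 for SPI1 (adjusted p = 0.0301 by edgeR), -2.22 for TYROBP (adjusted p = 0.0225) and -2.28 for FCER1G (adjusted p = 0.0363), with SE from 0.42 to 0.56. FCER1G was not called without S6_3 (-1.28, adjusted p = 0.0553).

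CSF2RA, the binding chain of the GM-CSF receptor, had the largest fall of the role that was called. It was at 20.0, 149 and 35.9 CPM in S6, 10.8, 14.3 and 10.5 CPM in S7 and 5.48, 9.01 and 6.94 CPM in S9. The 3 groups did not overlap, and S9 was 9.56-fold lower than S6 (log2 fold change -3.26, SE 0.68, adjusted p = 0.0252 by edgeR; -1.96 and 0.0234 without S6_3). CSF2RB, the signalling chain of the same receptor, ranged from 0.0546 to 60.9 CPM and LYZ, the lysozyme gene, from 0.767 to 316 CPM. Both had negative log2 fold changes in S9 against S6 and were not called by edgeR. Every S7 and S9 library of LYZ lay below every S6 library, and limma-voom called it lower in S9 (log2 fold change -4.16, adjusted p = 0.0414), while DESeq2 did not (0.0804).

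**Figure D4:**
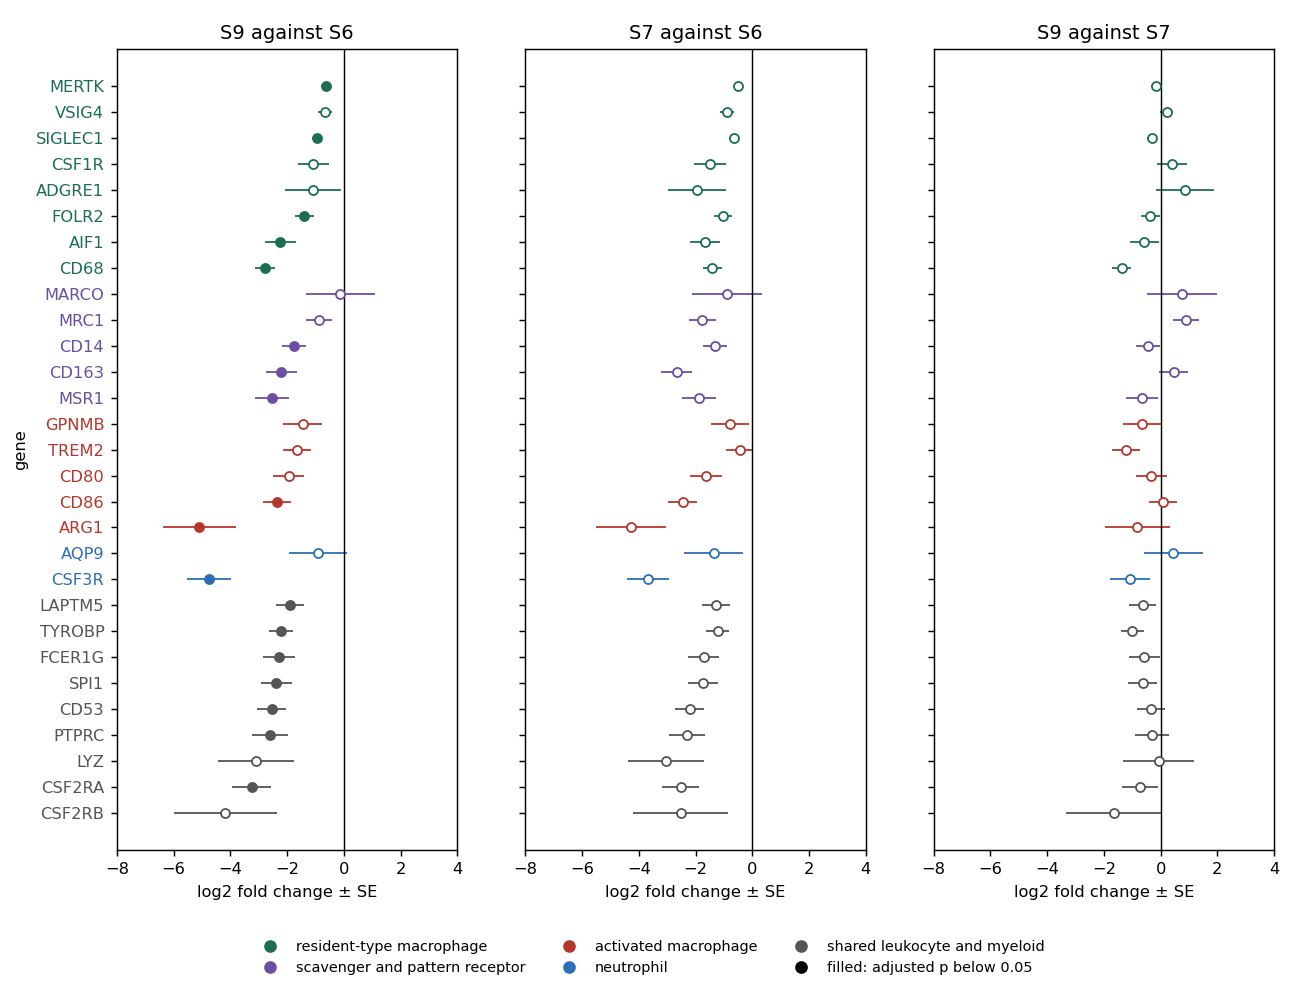
Log2 fold change ± SE of each tested member (rows, coloured by role) in the 3 comparisons (panels), with filled points where the edgeR adjusted p was below 0.05. All 29 points lie left of 0 in S9 against S6, where 18 are filled, and in S7 against S6, where none is, and they lie on both sides in S9 against S7.

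Between S7 and S6 no member was called by edgeR, while 23 of 29 had an unadjusted p below 0.05, all lower in S7. Of all 17102 genes tested 2928 had one, of which 1443 were lower in S7. In this comparison 0.0643% of all genes tested were called lower in S7. DESeq2 called 19 members lower in S7, with 4.3% of all genes lower, and limma-voom 5, with 1.01%. The 5 were CD68, CD163, CD86, CSF3R and CD53, which DESeq2 called too. The median log2 fold change of the members was -1.67, with -1.22 for the resident-type genes, -1.76 for the scavenger receptors, -1.63 for the activated genes and -2.21 for the shared genes. CSF3R had the lowest edgeR adjusted p, 0.0918, with a log2 fold change of -3.68 (SE 0.73). TREM2 had the smallest difference, with a log2 fold change of -0.44 (SE 0.48). S7 and S9 were both compared with the same S6 libraries, so the comparisons are not independent.

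The share of members whose groups did not overlap gives a view without the model. Every S9 library lay below every S6 library in 22 of 29 members, against 17% of all genes tested. Every S7 library lay below every S6 library in 17 of 29, against 10.4% of all genes. Every S9 library lay below every S7 library in 4 of 29, against 8.81% of all genes, and these were CD68, TYROBP, FCER1G and CSF2RA.

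Between S9 and S7 no member was called by edgeR, and 0% of all genes tested were called lower in S9. An unadjusted p below 0.05 was found for 3 members, all lower in S9. Over all 17102 genes tested it was found for 1575, of which 865 were lower in S9. DESeq2 called CD68 alone (log2 fold change -1.38, adjusted p = 0.0216), with 0.555% of all genes lower, and limma-voom none, with 0%. Log2 fold changes were negative in 21 members and positive in 8. CD68 (-1.37, SE 0.34), TREM2 (-1.22, SE 0.49) and TYROBP (-1.0, SE 0.41) were the lowest in S9 apart from CSF2RB and CSF3R, whose SE were 1.67 and 0.71. MRC1 was the only member with every S9 library above every S7 library (0.89, SE 0.46, adjusted p = 0.571 by edgeR). CD163 (0.46), CSF1R (0.41) and VSIG4 (0.21) were also on the positive side, each within 1 SE of 0.

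Tested over the 3 groups together, 6 members passed, namely CD68, CSF3R, CD86, CD53, CD163 and CSF2RA, with edgeR adjusted p from 0.0252 to 0.0498. Of all genes tested, 2.43% passed this test. The count was 1 without S6_3 or without S7_4, 2 without S7_2 or S7_3, 3 without S9_4, 15 without S6_2 and 0 without S6_4, S9_1 or S9_2. In those last fits 20, 24 and 21 members had an unadjusted p below 0.05. Of the genes tested, 3331 of 17531, 3045 of 17557 and 3268 of 17553 had one.

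Per length, in the deposited FPKM, LAPTM5 was the most abundant member in each group, at 156 ± 99.4 FPKM in S6, 65.1 ± 13.1 FPKM in S7 and 44.4 ± 19.4 FPKM in S9. It was followed in S6 by LYZ, AIF1, TYROBP, CD68 and FCER1G, with means from 152 to 121 FPKM that did not differ beyond their spread. CD68 ranked 5 of 29 in S6 and 7 in S9, while MERTK ranked 19 and 12, CSF1R 13 and 9, and ARG1 16 and 23. CSF3R was at 3.04 ± 1.57 FPKM in S6 and was the lowest of the 29 tested members in S9, at 0.115 ± 0.0679 FPKM.

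Set against PTPRC in the same library, 7 of the 8 resident-type genes stood higher in S9 than in S6, while CSF3R, ARG1, CSF2RB and LYZ fell furthest. The shift was not particular to S9. In S7, 7 of the 8 also stood higher than in S6 (median difference 0.72), with ADGRE1 and not CD68 as the lower one. This is a description with no test. PTPRC itself had a log2 fold change of -2.59 in S9 against S6, while the median over all genes tested was -0.01. A gene with no change would therefore also gain in this ratio. Of the 28 other members tested, 20 had a higher log2 ratio to PTPRC in S9 than in S6. The share over all genes was not computed. The median difference was 1.18 for the resident-type genes, 0.65 for the scavenger receptors, 0.33 for the activated genes and -0.04 for the shared genes. It was -0.35 for the 2 neutrophil genes, with CSF3R at -2.53 and AQP9 at 1.84. ARG1 (-2.45), CSF2RB (-2.40) and LYZ (-1.92) were also low, with overlapping libraries. The log2 ratio of MRC1 was 0.15 ± 0.66 in S6 and 1.68 ± 0.46 in S9, and that of CSF1R 0.54 ± 0.59 and 1.72 ± 0.51, with every S9 library above every S6 library in both. That of VSIG4 was -0.95 ± 1.62 in S6, with S6_3 at -2.81, and 0.66 ± 0.42 in S9.

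Between S6 and S9 the adaptors and SPI1 kept close to PTPRC. Their mean log2 ratio differed by 0.09 for SPI1, 0.15 for TYROBP and 0.27 for FCER1G, with overlapping libraries. S7 stood further above S6, by 0.47 for SPI1, 0.84 for TYROBP and 0.56 for FCER1G, with S7_3 the highest library in each. CD68 was on the other side of its role, with 1.09 ± 1.19 in S6 and 0.48 ± 0.05 in S9. CSF3R was at -3.31 ± 0.70 in S6 and -5.84 ± 1.12 in S9, and was the only member with every S9 library below every S6 library. Lymphocytes also carry PTPRC. Relative to SPI1, which T cells lack, the median difference of the resident-type genes was 1.09, and without S6_3 it was 0.63 relative to PTPRC. In ratios to SPI1, every S9 library lay below every S6 library in 4 members (CSF3R, ARG1, LYZ and CSF2RA) and above in 6. The 6 were MARCO, VSIG4, MRC1, CSF1R, ADGRE1 and LAPTM5, of which MARCO and ADGRE1 had few counts. SPI1 itself had a log2 fold change of -2.38 in S9 against S6, so a gene with no change would also gain in this ratio. The share over all genes was not computed for it either.

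**Figure D5:**
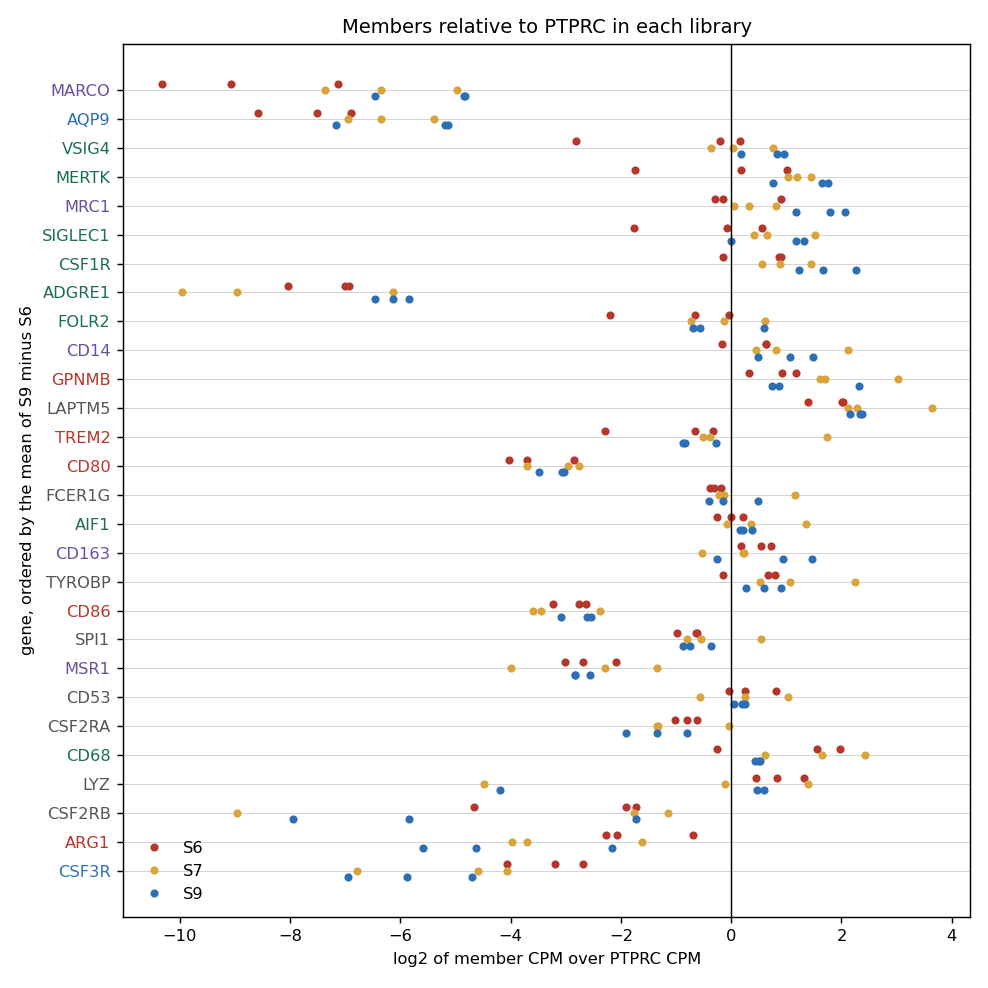
Log2 ratio of each member's CPM to that of PTPRC in each library (points, coloured by group), with members ordered from top to bottom by the mean of S9 minus S6. MRC1 and CSF1R have all S9 points right of the S6 points, SPI1 and CD53 overlap, and CSF3R at the bottom has all S9 points to the left.

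From a list of 34 growth factors, adhesion molecules, Fc and Toll-like receptors, kinases and transcription factors of myeloid cells, 28 were tested. In S9 against S6, 15 fell and none rose, and all 28 log2 fold changes were negative (median -1.73), with 6.34% of all genes called lower. CEBPB, a transcription factor of myeloid and acute-phase genes, was at 182, 164 and 163 CPM in S6, 75.8, 101 and 89.1 CPM in S7 and 61.6, 66.1 and 65.8 CPM in S9 (log2 fold change -1.40, SE 0.14, adjusted p = 0.00881 by edgeR). LYN, a kinase acting on receptor adaptors, was at 138 ± 22.8 CPM in S6, 55.0 ± 11.2 CPM in S7 and 37.6 ± 8.21 CPM in S9. The growth factor CSF1 was not called, with a log2 fold change of -0.04 (SE 0.42), while CSF3 fell (-5.82, SE 1.0, adjusted p = 0.0195 by edgeR). Both were named after their values were seen. In S7 against S6, 25 of the 28 were negative and none was called by edgeR.

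Other macrophage genes gave a mixed picture. Of 11 that are no members, 10 were found, 9 were tested, 1 fell in S9 against S6 and 6 had a negative log2 fold change (median -0.54). Over all genes tested, 6.34% were called lower. The one that fell was the lysosomal protease CTSS, at 427 ± 106 CPM in S6, 171 ± 31.0 CPM in S7 and 131 ± 39.2 CPM in S9 (log2 fold change -1.70, SE 0.27, adjusted p = 0.0173 by edgeR). STAB1, a scavenger receptor of macrophages and sinusoidal endothelium chosen after its values were seen, ranged from 150 to 195 CPM in S6, 106 to 146 CPM in S7 and 111 to 209 CPM in S9, so its groups overlapped. Those with a positive log2 fold change in S9 against S6 were SPP1 (1.69), CX3CR1 (0.83) and LYVE1 (0.28), none called by edgeR. They too were named after their values were seen.

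Markers of other cells moved with the members, and their part in these results was not tested. All 9 T and NK cell markers tested were lower in S9 than in S6, 4 of them by the test, while 6.34% of all genes tested were called lower. The summed level of these 9 markers was 48.3 to 184 CPM in S6, 27.4 to 62.5 CPM in S7 and 17.7 to 47.3 CPM in S9. All 8 B and plasma cell markers were lower too, 4 by the test, with sums of 2196 to 3285, 441 to 1551 and 904 to 1682 CPM. Most of these sums came from JCHAIN, named after its values were seen, with means of 2408, 967 and 1194 CPM. JCHAIN was not called (adjusted p = 0.155 by edgeR). Of 7 dendritic cell markers 3 fell in S9, with sums of 47.6 to 134, 43.3 to 46.8 and 35.8 to 44.9 CPM. S6_3 had the highest sum of T and NK cell and of dendritic cell markers.

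Of 4 mast cell markers tested MS4A2 fell and GATA2, which endothelium also carries, rose in S9, while CPA3 was at 0 in all libraries. Smooth muscle markers went the other way from the members, with 6 of 7 called higher in S9, as were 1030 of all 17102 genes tested. The sums of these markers were 1783 to 3166 CPM in S6, 2786 to 9885 CPM in S7 and 6083 to 11778 CPM in S9. All 7 smooth muscle and all 8 epithelial markers had counts, as the labelled tissue holds. Of the 6 fibroblast and 8 epithelial markers none was called in S9 against S6, nor was any of the 8 genes of an RNA quality list. In that list ATP6, COX1, COX2, COX3 and ND1 were far lower in S6_4, S7_3 and S9_4 than in the other libraries. With an SE of 1.77 to 1.89 the test could not settle whether these genes differed between groups. Of 6 endothelial markers CLDN5 rose, and of 4 platelet and erythroid markers PPBP fell.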

How the data were processed

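The 9 libraries of urethral RNA were grouped by the code in their titles. The authors deposited whole-number read counts per gene, and per the submitters' processing notes used fastp, HISAT2 and HTSeq, with no versions. No genome build, annotation or strand setting was given in the sources used here, so no coordinates are printed. The authors also deposited FPKM, used only to order levels between genes. Total counts were 35127085 to 36832773 per library, and no libraries were identical.

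Genes were filtered by filterByExpr (minimum count 10, total 15), scaled by TMM and fitted over all 9 libraries with edgeR 4.0.16's robust quasi-likelihood test in R 4.3.3 (6 residual degrees of freedom, Benjamini-Hochberg over all genes, threshold 0.05). Each SE is the absolute log2 fold change over the root of F. The pipeline was tested on simulated data. DESeq2 1.42.0, limma-voom (limma 3.58.1), other scalings and filters, a replicate block, 2 groups alone, the 6 libraries with ATP6 above 100 CPM, and each library left out were alternatives.

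Members and lists were chosen with earlier results of these data known. All members may be named. Library values are given for the 3 members per role with the smallest 3-group p and for called members, plus MRC1, TREM2, GPNMB and MARCO, added after their values were seen. From other lists, the first 2 by p in S9 against S6 may be named, and further genes were named after their values were seen. The denominator SPI1 was added after seeing the data. Reads of near-identical genes can be split between copies. The planned promoter motif search was not run.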

Additional observations from a re-analysis of the deposited data

How the results depend on the processing

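By edgeR, all 18 member falls in S9 against S6 kept their sign in each alternative run, but many lost the threshold. Leaving out 1 library gave 0 to 19 members and 0 to 2076 genes in S9 against S6 (median of members -2.56 to -1.41), 0 members and 0 to 10 genes in S7 against S6 (median -2.02 to -1.04), 0 members and 0 to 1 genes in S9 against S7 (median -0.61 to -0.19), and 0 to 15 members and 0 to 641 genes over the 3 groups. The resident-type genes relative to PTPRC ranged from 0.63 to 1.36. The main fit called 2115, 19, 0 and 415 genes.

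DESeq2 called 20 members and 4112 genes in S9 against S6, 19 members and 1417 genes in S7 against S6, 1 member and 123 genes in S9 against S7, and 22 members and 3305 genes over the 3 groups. limma-voom called 23 members and 4064 genes in S9 against S6, 5 members and 308 genes in S7 against S6, and 18 members and 2339 genes over the 3 groups. The 2 groups alone gave 9 members in S9 against S6 and 0 genes in S7 against S6. The 6 libraries with ATP6 above 100 CPM gave 0 members and 7 genes in S9 against S6, 0 genes in S7 against S6, 1 gene in S9 against S7, and 0 members and 0 genes over the 3 groups. Fewer samples enter these fits; the cause of the other changes was not tested.

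The labels do not say that the number in a title pairs libraries. Deviations from group means correlated at -0.06 to 0.14 over the 7 same-numbered pairs, with 3 above 0.1, and 6 of 8 libraries with a partner correlated best with their own number, a hint from the data only. With a replicate block, 1 member and 16 genes were called in S9 against S6 (median -1.43), 1 gene in S7 against S6, and 0 members and 2 genes over the 3 groups, and the median of the members in S9 against S7 was 0.03 in place of -0.36.

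MARCO turned positive in S9 against S6 with limma-voom (1.48), the replicate block (2.48), without S6_3 (2.71) and without S9_1 (0.32), and AQP9 with the replicate block (0.17) and without S6_3 (1.11), all uncalled. With 1 library left out their values spanned -0.73 to 2.71 and -1.57 to 1.11. Both had at most 64 counts in a library, which limits their precision.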

Other observations

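LYZ and CSF2RB, both found by RefSeq gene ID, varied widely between libraries of the same group. For LYZ every S6 library still lay above every S7 and S9 library. LYZ was at 1.20 CPM in S7_4 and 0.767 CPM in S9_1, against 21.8 to 39.5 CPM in the other S7 and S9 libraries and 87.5, 316 and 129 CPM in S6_2, S6_3 and S6_4. CSF2RB was at 60.9 and 21.8 CPM in S6_3 and S6_4 but 1.38 CPM in S6_2. It was at 6.63 and 7.87 CPM in S7_3 and S7_4 but 0.0546 CPM in S7_2, and at 4.23 CPM in S9_1 but 0.274 and 0.106 CPM in S9_2 and S9_4. CSF2RA, the partner chain of the same receptor, varied at most 1.64-fold within S9 but ran from 20.0 to 149 CPM within S6.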
